A study of Mus musculus with 4 samples.

Results

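Sensory ganglion neuron genes were described here by the 8 symbols Ntrk2, Ntrk3, Ret, Avil, Runx1, Runx3, P2rx3 and Pou4f2, out of 24971 genes counted in E12.5 mouse neural tubes. The symbols were listed by name, and the counts of each symbol's RefSeq transcripts were summed. The study sequenced RNA from 4 pools of neural tubes of the C57BL/6 background, 2 labelled Lbx1Δ/Δ and 2 labelled wild type (WT), each pool being the tubes of 1 genotype taken from 1 litter. The labels name no other allele or treatment, and they do not say which part of Lbx1 was deleted. Libraries held 16853984 to 20579803 counts. Levels are CPM, a gene's reads per 1000000 reads counted in its library, and 2 libraries a group limit every comparison.

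The somatosensory neurons of the dorsal root and cranial ganglia arise from neural crest and placodes and are sorted into classes by the growth factor receptors they carry. Part of the nociceptors come to carry Ret under Runx1. Neurons that carry Ntrk3 (TrkC) become proprioceptors under Runx3, and those that carry Ntrk2 (TrkB) or Ret early become touch receptors. POU class 4 factors such as Pou4f2 act in newly born sensory neurons, Avil encodes the actin-bundling protein advillin of peripheral sensory neurons, and P2rx3 encodes an ATP-gated channel of nociceptors. Several of the 8 genes are not restricted to ganglia. Ntrk2, Ntrk3 and Ret are also used in the spinal cord, motor neurons among them, Runx1 in blood, and Pou4f2 in retina and midbrain.

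Prdm12 and Isl1, factors of sensory ganglion neurons, had reads in all 4 libraries. Prdm12, a factor of nociceptor precursors that was not among the 8, was at 46.1 and 99.6 CPM in the libraries labelled Lbx1Δ/Δ and at 45.9 and 79.8 CPM in the WT libraries. Isl1, which motor neurons also express, was at 123 and 204 CPM against 123 and 189 CPM. Which cells of the pools the reads of Prdm12 or Isl1 came from was not tested. Prph, Scn10a and Calca, genes of peripheral and nociceptive neurons with 3, 2 and 4 accessions, were listed at 0 in every library. Genes of the same list with a single accession differed. Calcb had 11 and 13 counts against 9 and 11, and the heat channel gene Trpv1 had 10 and 25 against 13 and 20. Trpm8 had 0 and 1 counts against 2 and 1, and Mrgprd was listed at 0 in every library. The targeted gene Lbx1 was at 113 and 387 CPM in the libraries labelled Lbx1Δ/Δ and at 39.8 and 81.4 CPM in the WT libraries, the reverse of a loss of the counted transcript, and the labels do not state what was deleted, so every direction below is between libraries as labelled.

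The counts of 3 receptor genes turned on which transcript they were assigned to. The coding sequences below show where the transcripts of each receptor part, taken from the transcripts of a GENCODE annotation of GRCm38 that are linked to the RefSeq accessions. They are shown because the deposited counts are per transcript and lay mostly or wholly on 1 transcript of each receptor. Lower case marks the last 30 shared coding bases, and capitals mark up to 60 coding bases after the point of parting.
Ntrk2 full-length receptor, NM_001025074, capitals at chr13:58985802-58985861, plus strand: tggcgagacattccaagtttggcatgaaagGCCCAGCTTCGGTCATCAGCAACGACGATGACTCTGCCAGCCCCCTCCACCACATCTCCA
Ntrk2 truncated receptor, NM_008745, capitals at chr13:58932023-58932060, plus strand: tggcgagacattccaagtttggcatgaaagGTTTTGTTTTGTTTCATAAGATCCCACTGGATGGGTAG
Ntrk3 full-length receptor, NM_008746, capitals at chr7:78260355-78260414, minus strand: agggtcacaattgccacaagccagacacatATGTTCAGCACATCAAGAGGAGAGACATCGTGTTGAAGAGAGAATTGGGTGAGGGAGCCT
Ntrk3 truncated receptor, NM_182809, capitals at chr7:78304367-78304426, minus strand: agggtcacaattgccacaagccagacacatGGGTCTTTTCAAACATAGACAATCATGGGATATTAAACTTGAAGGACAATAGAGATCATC
Ret short tail, NM_001080780, capitals at chr6:118155256-118155287, minus strand: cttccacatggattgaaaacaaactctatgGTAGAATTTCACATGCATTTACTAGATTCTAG
Ret long tail, NM_009050, capitals at chr6:118153951-118154010, minus strand: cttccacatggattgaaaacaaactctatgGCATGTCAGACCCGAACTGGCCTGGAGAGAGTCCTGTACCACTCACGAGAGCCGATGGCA

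The full-length and truncated Ntrk2 transcripts share 1393 coding bases. After that the truncated receptor has 38 coding bases, stop codon included, and the full-length receptor has 1073, which include the tyrosine kinase. For Ntrk3 the shared part is 1585 bases, followed by 254 bases in the truncated and 893 in the full-length receptor. The Ret transcripts share 3190 coding bases, kinase included, and then have 32 or 158 bases of tail.

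Ntrk2, the receptor for BDNF and neurotrophin-4, was at 78.8 and 81.8 CPM in the libraries labelled Lbx1Δ/Δ and 67.0 and 86.7 CPM in the WT libraries. The libraries labelled Lbx1Δ/Δ lay between the WT libraries. The truncated transcript held 98.3% of the Ntrk2 counts over all 4 libraries, with 1338 and 1335 counts in the libraries labelled Lbx1Δ/Δ and 1368 and 1451 in WT. The full-length transcript held 1.67%, with 22 and 43 counts against 10 and 18, and a second full-length transcript was at 0. In the GENCODE models 1098 bases of the truncated transcript and 4322 bases of that full-length transcript were in no other accession, while the second full-length one had 70. Reads over the kinase exons lie in both full-length accessions, so the full-length form may be counted in part only, and the annotation used for counting is not given in the sources used here.

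Ntrk3, the receptor for neurotrophin-3, was at 22.6 and 39.6 CPM in the libraries labelled Lbx1Δ/Δ and at 19.9 and 28.7 CPM in the WT libraries. Library 2 labelled Lbx1Δ/Δ was the highest, and the groups overlapped. The truncated transcript again held most of the counts, 92.0% of them, with 362 and 587 counts in the libraries labelled Lbx1Δ/Δ and 392 and 455 in WT. The full-length transcript had 27 and 80 counts against 17 and 32. When each accession was fitted as a feature of its own, a fit added after the data had been seen, the full-length transcripts of Ntrk2 and Ntrk3 had log2 differences of 1.30 (SE 0.63) and 1.21 (SE 0.73) between labels, and the truncated ones 0.04 (SE 0.19) and 0.28 (SE 0.34). None of these passed edgeR's test (adjusted p = 1 for each). The difference between the forms was not itself tested.

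**Figure D1:**
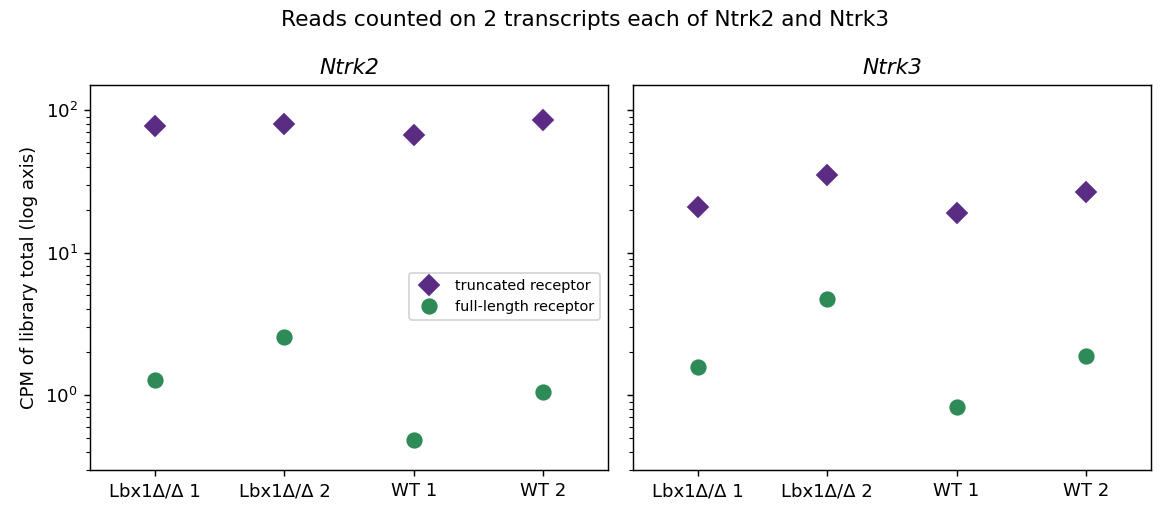
CPM of the library total, on a log axis, for the truncated (diamonds) and full-length (circles) transcripts of Ntrk2 and Ntrk3 in each of the 4 libraries. In every library the truncated transcript was above the full-length one, with 77.6 against 1.28 CPM for Ntrk2 in library 1 labelled Lbx1Δ/Δ.

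Ret, the signalling receptor of the GDNF family, was at 5.33 and 10.8 CPM in the libraries labelled Lbx1Δ/Δ and at 8.21 and 13.5 CPM in the WT libraries. Within each replicate number the library labelled Lbx1Δ/Δ was the lower, yet its library 2 exceeded WT library 1. All 671 Ret counts lay on the transcript with the short tail, and the one with the long tail was listed at 0, although 2266 of its 5456 bases were in no other accession in the GENCODE model.

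Runx1 was listed at 0 in every library for all 4 of its accessions, and therefore was not tested. In the GENCODE models 3 of these 4 accessions had 0 bases of their own, and NM_009821 had 1203. Among the 1970 genes with 4 or more accessions 39.3% were listed at 0 in all libraries, against 30.2% of the 17047 genes with 1 accession. The listed 0 therefore does not show whether Runx1 was expressed. Cbfb, the DNA-binding partner of both Runx factors, also has 4 accessions and had a single read over the 4 libraries.

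Runx3, counted on 1 accession, was at 15.1 and 15.4 CPM in the libraries labelled Lbx1Δ/Δ and at 11.5 and 15.6 CPM in the WT libraries. WT library 1 was the lowest and the other 3 were nearly level. P2rx3 was at 56.8 and 136 CPM in the libraries labelled Lbx1Δ/Δ and at 78.7 and 108 CPM in the WT libraries. Both extremes were in the libraries labelled Lbx1Δ/Δ, and the same was true of Avil. Avil was at 3.30 and 19.0 CPM in the libraries labelled Lbx1Δ/Δ and at 5.93 and 11.7 CPM in the WT libraries. Of the 3033 exonic bases of Avil 165 are shared with exons of Tsfm in the GENCODE annotation, with strand not compared. How reads there were counted is not stated in the sources used here, so some may belong to Tsfm. Pou4f2 was at 19.4 and 60.3 CPM in the libraries labelled Lbx1Δ/Δ and at 18.2 and 34.0 CPM in the WT libraries. Its library 2 labelled Lbx1Δ/Δ stood above the other 3.

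**Figure D2:**
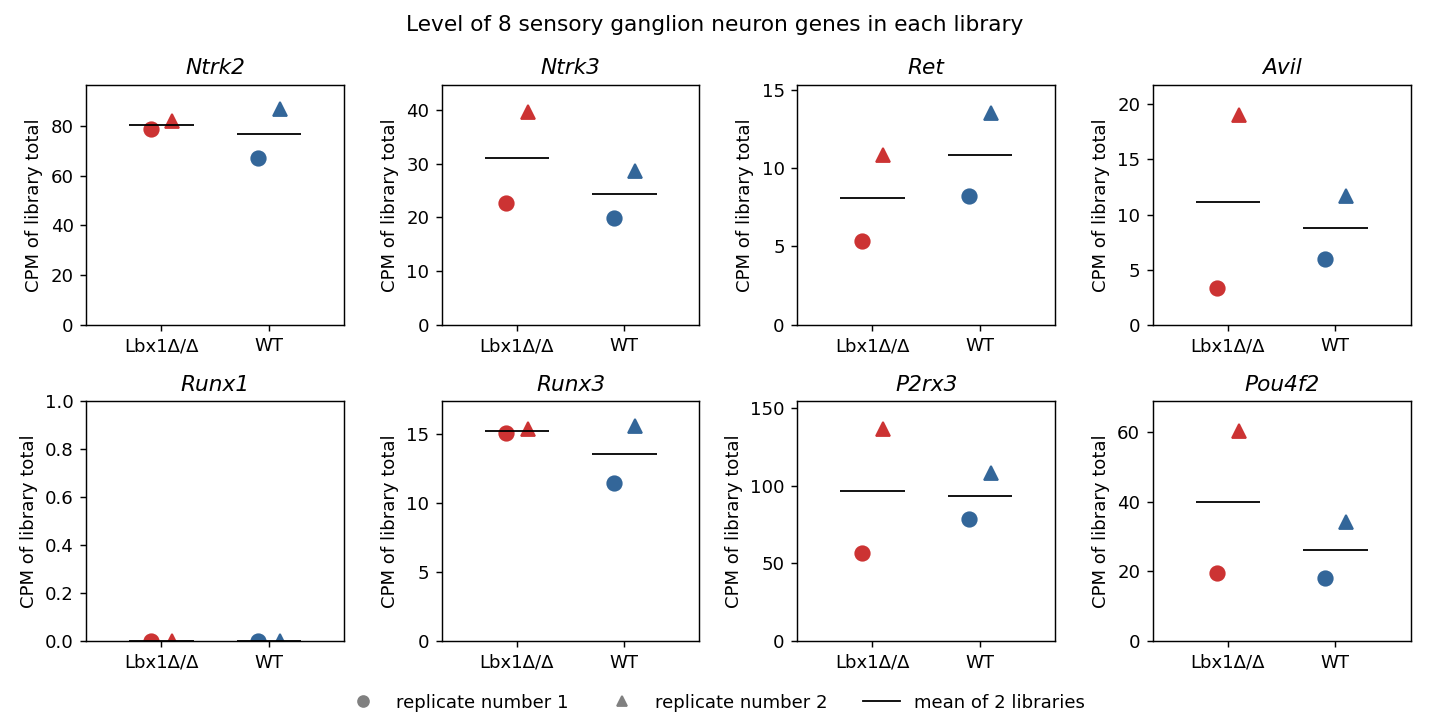
CPM of the library total (linear axes from 0) for the 8 genes, with libraries labelled Lbx1Δ/Δ left and WT right, circles for replicate number 1, triangles for number 2 and a line at the mean of 2 libraries. The groups overlap for each of the 7 genes with counts, and Avil spans 3.30 to 19.0 CPM within the libraries labelled Lbx1Δ/Δ.

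Levels can be set beside each other per length for the 4 members with a single accession, here as CPM per kilobase of the linked transcript. P2rx3 was the highest, at 31.4 and 75.1 CPM per kilobase in the libraries labelled Lbx1Δ/Δ and 43.4 and 59.5 in WT. Pou4f2 came next, at 6.06 and 18.8 against 5.67 and 10.6 CPM per kilobase. Runx3, at 3.88 and 3.96 against 2.97 and 4.01, and Avil, at 1.09 and 6.26 against 1.95 and 3.87, overlapped in range.

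Between genotype labels none of the 7 tested members passed edgeR's quasi-likelihood test at an adjusted p of 0.05. Over all 10757 tested genes 0 passed (0.00%), and 55 (0.511%) had an unadjusted p under 0.05, with 0 members among them. DESeq2 also called 0 genes and gave 33 genes (0.307%) at that unadjusted p, again with 0 members. These fits used genotype alone. With the replicate number as a block edgeR called 92 genes (0.855%) at an adjusted p of 0.05, with 0 members. The values that follow are from the edgeR fit on genotype alone. Pou4f2 averaged 39.9 ± 28.9 CPM in the libraries labelled Lbx1Δ/Δ and 26.1 ± 11.2 CPM in the WT libraries (SD, n = 2 each), a fitted log2 difference of 0.59 (SE 0.62, 95% interval −1.02 to 2.20, edgeR adjusted p = 0.9998). Ret averaged 8.07 ± 3.86 CPM and 10.8 ± 3.71 CPM (SD, n = 2 each), a log2 difference of −0.44 (SE 0.47, interval −1.66 to 0.78). Ntrk3 averaged 31.1 ± 12.0 CPM and 24.3 ± 6.26 CPM (SD, n = 2 each), a log2 difference of 0.34 (SE 0.36, interval −0.61 to 1.28).

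The other tested members had smaller fitted differences relative to their errors. Avil averaged 11.1 ± 11.1 CPM in the libraries labelled Lbx1Δ/Δ and 8.83 ± 4.11 CPM in WT (SD, n = 2 each), a log2 difference of 0.31 (SE 0.86). Its interval of −1.93 to 2.56 was the widest of the 7. A change of several fold in either direction could not be detected by this fit on genotype alone. The log2 differences were 0.16 (SE 0.27) for Runx3, 0.051 (SE 0.19) for Ntrk2 and 0.029 (SE 0.44) for P2rx3. Ntrk2 had the narrowest interval, −0.45 to 0.55. Without library 2 labelled Lbx1Δ/Δ the log2 difference was −1.42 for Avil, −0.43 for Pou4f2, −0.72 for P2rx3 and −0.11 for Ntrk3, the other direction from the fit to all 4 libraries. Without WT library 1 it was −0.082 for Avil, −0.16 for P2rx3, −0.10 for Ntrk2 and −0.027 for Runx3, also reversed.

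None of the 7 members had groups that did not overlap, against 20.6% of all tested genes in either direction. Within replicate numbers the libraries labelled Lbx1Δ/Δ were higher in both for Ntrk3 (log2 differences of 0.18 and 0.46) and Pou4f2 (0.10 and 0.83), and lower in both for Ret (−0.62 and −0.32). These are 2 and 1 of the 7, against 30.3% and 28.9% of all tested genes. Avil and P2rx3 went opposite ways in the numbers, with −0.84 and 0.69 for Avil and −0.47 and 0.33 for P2rx3, a pattern that 20.6% of tested genes had. Ntrk2 (0.24 and −0.084) and Runx3 (0.39 and −0.019) were higher in number 1 and about level in number 2.

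**Figure D3:**
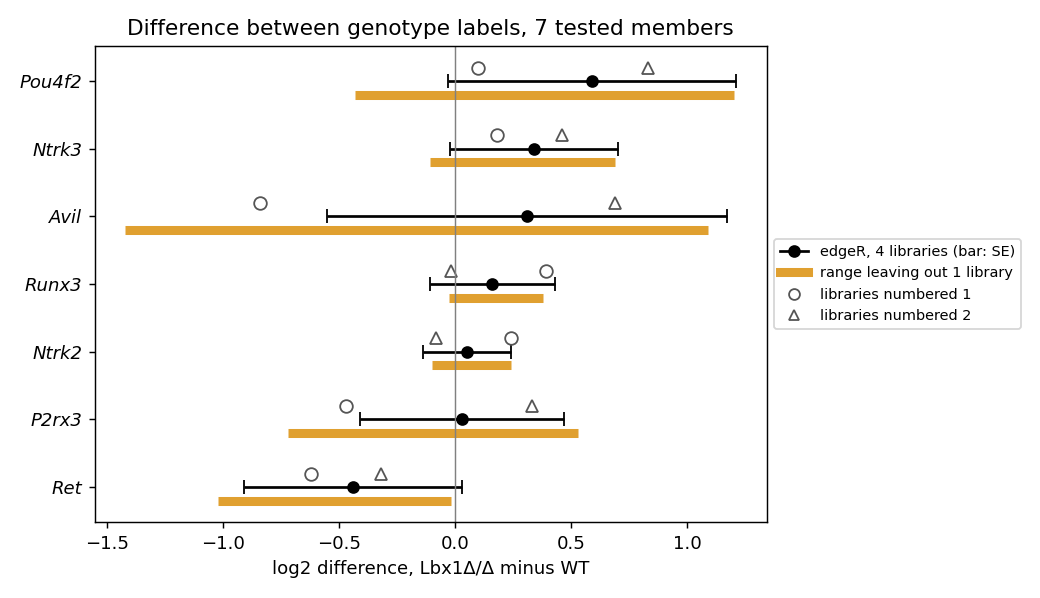
Log2 difference of libraries labelled Lbx1Δ/Δ minus WT for the 7 tested members, with the edgeR estimate and its SE (filled points), the range when 1 library is left out (thick bars) and the differences within replicate numbers 1 (open circles) and 2 (open triangles). The thick bar crosses 0 for every member but Ret, which runs from −1.02 to −0.016.

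Each of the 7 tested members was higher in library 2 than in library 1 of both genotype labels, which 40.5% of all tested genes also were. The difference was widest for Avil, whose library 2 was 5.70-fold above library 1 among those labelled Lbx1Δ/Δ and 1.98-fold above it in WT. Pou4f2 had ratios of 3.10 and 1.87, P2rx3 of 2.39 and 1.37, Ret of 2.02 and 1.64, and Ntrk3 of 1.75 and 1.45. Ntrk2 and Runx3 had 1.04 and 1.02 among the libraries labelled Lbx1Δ/Δ and 1.29 and 1.35 in WT. Among the libraries labelled Lbx1Δ/Δ 4 of the 7 exceeded 2-fold, against 10.5% of all tested genes. Each ratio compares single pools, so it has no replicate check, and fewer cells of a type and less RNA per cell cannot be told apart in pooled tissue.

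Markers of other cell types differed between the same libraries. The 6 pan-neuronal markers summed to 3482 and 6473 CPM in libraries 1 and 2 labelled Lbx1Δ/Δ and to 3048 and 5525 CPM in the WT libraries, ratios of 1.86 and 1.81. The 7 motor neuron markers had ratios of 1.53 and 1.56, and the 6 neural progenitor markers, Pax6 being listed at 0, had 1.01 and 0.994. The 7 markers of neural crest and Schwann precursors, of which 3 were listed at 0, Cdh19 among them, had 1.48 and 1.60. Most of that sum was Fabp7, which radial glia of the neural tube also express, and without it the ratios were 0.954 and 0.885. The other tested genes of that list were split, with 1.05 and 0.993 for Sox10, 1.55 and 1.49 for Foxd3 and 0.693 and 0.663 for Erbb3. The 7 markers of mesenchyme and cartilage had 0.883 and 0.788. Without Col1a1 and Col1a2, which made up most of it, that sum had 0.522 and 0.638, with 0.250 and 0.488 for Twist1, and both omissions were chosen after the values were seen. The 10 markers of blood and macrophages, Aif1 being listed at 0, summed to 5853 and 2620 CPM in the libraries labelled Lbx1Δ/Δ and to 8176 and 2814 CPM in WT. Most of that sum was the globin genes Hbb-y, Hba-x and Hbb-bh1, so it does not describe the macrophage markers. Of these, Spi1 and Csf1r were higher in library 2 under both labels. Csf1r was at 34.3 and 39.1 CPM against 35.7 and 40.9 CPM in WT. Cx3cr1 was split, at 11.5 and 15.8 CPM against 19.8 and 13.9 CPM. The ratios of Avil and Pou4f2 in both labels, and of P2rx3 and Ret among the libraries labelled Lbx1Δ/Δ, were above those of the pan-neuronal sum. Only 3 of the 6 pan-neuronal markers were tested, with ratios of 1.85 and 1.73 for Tubb3, 2.07 and 1.91 for Elavl3 and 1.76 and 1.94 for Stmn2. Ret among the libraries labelled Lbx1Δ/Δ was thus below Elavl3, and Pou4f2 in WT was below Elavl3 and Stmn2. The part of all these cell type markers in the members' values was not tested.

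The 5 retina markers, Atoh7 being listed at 0, summed to 0.696 and 0.178 CPM in the libraries labelled Lbx1Δ/Δ and to 4.52 and 0.295 CPM in WT. Six6, the retina marker with the most reads, had 0 counts in both libraries labelled Lbx1Δ/Δ and 54 and 4 counts in WT. The 5 midbrain markers summed to 67.1 and 49.3 CPM in the libraries labelled Lbx1Δ/Δ and to 62.6 and 50.8 CPM in WT, mostly through Pax7 and En1, which the spinal cord also expresses. En2, with a single accession, had 2 and 2 counts in the libraries labelled Lbx1Δ/Δ and 31 and 8 in WT, and Otx2, with 6 accessions, had a single read in WT library 1. The part of either tissue in the Pou4f2 values was not tested.

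**Figure D4:**
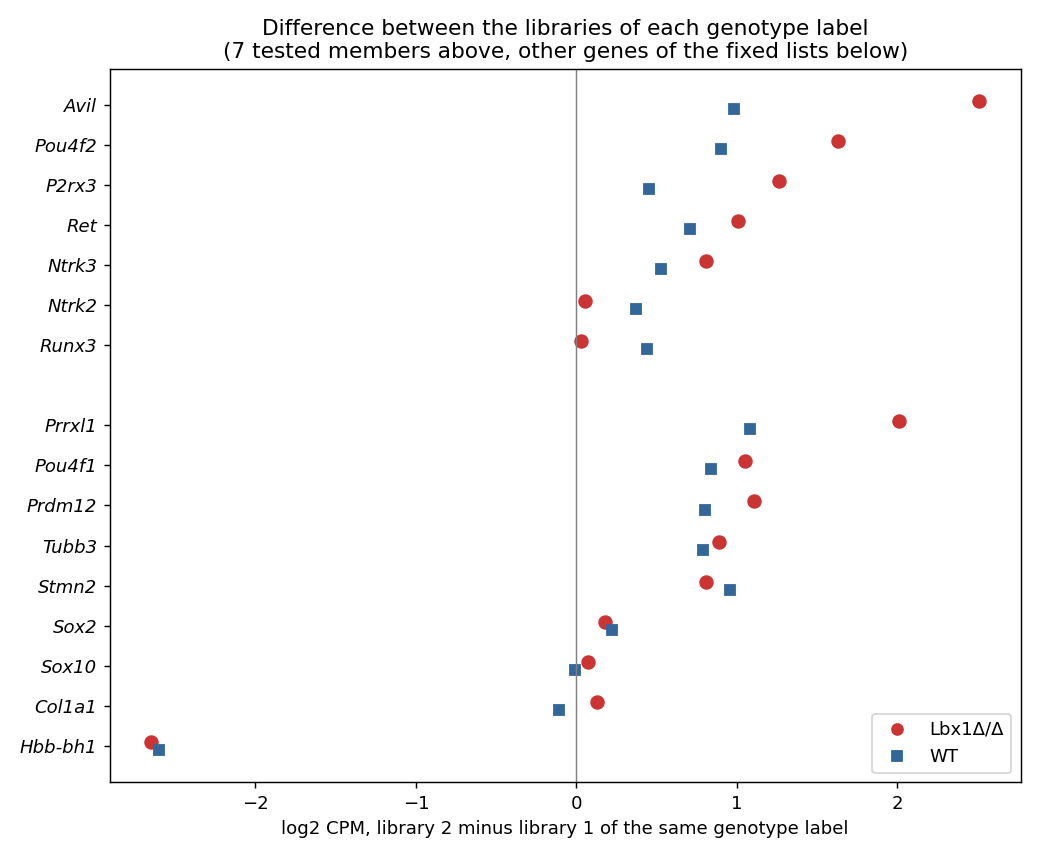
Log2 CPM of library 2 minus library 1 for libraries labelled Lbx1Δ/Δ (circles) and WT (squares), for the 7 tested members above and 9 other genes of the lists below. All members lie at or right of 0, Avil farthest, while Sox2 and Sox10 lie near 0 and Hbb-bh1 far to the left.

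The neurotrophin system around Ntrk2 and Ntrk3 was uneven in its counts. Of its 10 listed genes 7 were tested and 0 were called in either direction, with a median log2 difference of 0.33 beside −0.0026 for all tested genes. Ngfr, the p75 coreceptor of all neurotrophins, was at 340 and 444 CPM in the libraries labelled Lbx1Δ/Δ and at 270 and 347 CPM in the WT libraries (log2 0.33, SE 0.22). Among the ligands, Bdnf had 16 and 14 counts in the libraries labelled Lbx1Δ/Δ and 9 and 7 in WT (log2 1.02, SE 0.50), and with 12 accessions it may be counted in part only. Ntf5, which encodes neurotrophin-4, had 40 and 10 counts against 100 and 24, and Ntf3 had a single read in WT library 1.

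The GDNF family around Ret was thinly counted. Of its 8 listed genes 4 were tested and 0 were called, with a median log2 difference of 0.31. Gfra3, the coreceptor for artemin in nociceptors, was at 17.2 and 29.7 CPM in the libraries labelled Lbx1Δ/Δ and at 18.2 and 21.3 CPM in WT (log2 0.23, SE 0.33). Gfra2, the coreceptor for neurturin, had 22 and 34 counts against 27 and 20. Gdnf, Gfra1 and Gfra4 were listed at 0, each with several accessions. Nrtn, which encodes neurturin, had 38 and 10 counts against 11 and 3 (log2 1.92, SE 0.92), Pspn had 13 and 6 against 23 and 4, and Artn had 2 reads, both in WT library 2.

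Of 20 listed transcription factors of sensory neurons 14 were tested and 0 were called, with a median log2 difference of 0.19. Pou4f1, the POU factor of most sensory neurons and of some dorsal interneurons, was at 134 and 277 CPM in the libraries labelled Lbx1Δ/Δ and at 126 and 225 CPM in WT (log2 0.21, SE 0.45). Pou4f3 was at 4.70 and 5.87 CPM against 3.74 and 5.02 CPM. The smallest unadjusted p of this list belonged to Neurog2, a proneural factor of early-born sensory neurons and of the neural tube, at 99.1 and 89.9 CPM against 61.5 and 73.5 CPM (log2 0.47, SE 0.18, edgeR adjusted p = 0.9998). Maf, a factor of touch receptor neurons, had a log2 difference of −0.26 (SE 0.22). Of 21 listed channels, peptides and neurofilaments 9 were tested and 0 were called, with a median of 0.043. Piezo2, the mechanosensitive channel of touch neurons, was at 66.7 and 52.6 CPM against 78.9 and 69.8 CPM (log2 −0.33, SE 0.21). Calcb, which encodes a calcitonin gene-related peptide, and Nefl, the light neurofilament, had log2 differences of 0.37 (SE 0.53) and 0.11 (SE 0.36), and P2rx2, the channel subunit that joins P2rx3, was listed at 0 with 5 accessions.

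The genes most like each member were sought among 86 other tested genes of the lists, by the root mean square difference of log2 CPM centred over the 4 libraries. Ntrk2 and Runx3 were nearest to each other (0.059), with Sox2 next for Ntrk2 (0.072). Avil was nearest to Prrxl1 (0.20), a homeobox factor of nociceptive circuits. P2rx3 was nearest to Neurod1 (0.10) and Chat (0.16), and Ret to Neurod1 (0.22) and P2rx3 (0.24). Ntrk3 was nearest to Slc18a3 (0.058) and Foxd3 (0.065), and Pou4f2 to Shc3 and Mafa (0.13 each). With 4 libraries these distances describe the profiles only.

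Promoters of 5 of the 8 genes were in the RefSeq table of GRCm38.p6, with 7 start sites among them, each covering 250 bases before and 50 after the start. The 3 below are those of Avil and Pou4f2, the members with the widest range over libraries, and of Ntrk2, which varied little. Capitals mark the RUNX core (TGTGGT or TGCGGT, both strands), searched because Runx1 and Runx3 are among the 8.
Avil, chr10:127000459-127000758, plus strand: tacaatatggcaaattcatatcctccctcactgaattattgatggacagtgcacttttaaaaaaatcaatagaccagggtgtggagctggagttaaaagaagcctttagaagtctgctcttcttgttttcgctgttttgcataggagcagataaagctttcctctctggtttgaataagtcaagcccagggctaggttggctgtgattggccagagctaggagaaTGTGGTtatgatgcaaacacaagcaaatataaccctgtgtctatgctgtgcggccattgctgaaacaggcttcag
Pou4f2, chr8:78436598-78436897, minus strand: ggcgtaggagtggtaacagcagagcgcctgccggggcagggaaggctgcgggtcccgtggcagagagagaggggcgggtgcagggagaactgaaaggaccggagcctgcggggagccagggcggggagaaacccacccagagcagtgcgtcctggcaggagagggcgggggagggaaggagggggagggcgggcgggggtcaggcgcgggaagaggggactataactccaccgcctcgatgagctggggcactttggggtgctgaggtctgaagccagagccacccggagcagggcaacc
Ntrk2, chr13:58806319-58806618, plus strand: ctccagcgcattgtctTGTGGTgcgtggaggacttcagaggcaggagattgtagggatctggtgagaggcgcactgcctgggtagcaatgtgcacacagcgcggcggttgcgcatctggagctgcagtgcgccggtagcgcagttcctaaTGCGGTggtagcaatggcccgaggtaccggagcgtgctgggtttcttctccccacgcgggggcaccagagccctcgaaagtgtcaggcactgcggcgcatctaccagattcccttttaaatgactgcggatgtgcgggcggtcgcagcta

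The RUNX core was in 4 of the 7 promoters and in 22.4% of all 32851 promoters in the table. It occurred 1 time in the promoter of Avil, 2 times in those of Ntrk2, of 1 start of Runx1 and of 1 start of Runx3, and 0 times in that of Pou4f2 and at the other start of each Runx gene. The core ATTAAT, bound by POU class 4 factors, was in 0 of the 7 promoters and in 4.75% of all. The Avil promoter had a GC content of 43.0%, against 69.7% for Pou4f2 and 61.3% for Ntrk2, and the median over all promoters was 52.7%. A match of letters is not a binding site, and these libraries hold no measurement of binding.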

How the data were processed

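The deposited values are raw read counts per RefSeq transcript for 4 libraries, with no normalization, per the values of the deposited files. The submitters' processing notes name build mm9, the aligner TopHat2 2.1.1, the counter featureCounts, and edgeR. Neither the annotation nor the strand setting nor the treatment of shared reads is stated in the sources used here. Of 41411 accessions 41218 were named from a RefSeq table and 97 from GENCODE, both of GRCm38, and 96 unnamed ones (0.325% to 0.649% of counts) each stayed a gene of their own. Counts were summed per symbol. Genes passing filterByExpr (minimum count 10, minimum total 15), 10757 in number, were tested with TMM scaling and edgeR's two-sided quasi-likelihood test (edgeR 4.0.16, R 4.3.3) on genotype alone, with Benjamini-Hochberg adjustment over all of them at 0.05. Each SE was taken from the log2 difference and its F statistic (difference over root F). Differences between single libraries are log2 CPM with 0.5 counts added. P-values of the fit on genotype alone measure the spread between these pools, including any difference that same-numbered libraries share. Such a shared difference (correlation of deviations 0.62) widens the errors of that fit. The labels do not pair the numbers across genotypes, and whether same-numbered pools share a litter is not known here. Alternatives were RLE or no scaling, DESeq2 1.42.0, other filters, the replicate number as a block, leaving out each library, and accessions not summed (added after the data were seen). The members and lists were chosen with earlier results of these data known. Named genes were the 8 members, direct ligands and coreceptors of the receptors, close paralogues and partners, the 3 smallest p-values of each related list and the nearest profiles. Some genes that these rules pick are not reported here. Prph, Scn10a, Calca, Prdm12, the genes of the plot of library differences and single list markers were named after their values were seen. A count of 0 allows up to 0.146 to 0.178 CPM (3 counts), for counting error only.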

Additional observations from a re-analysis of the deposited data

How the results depend on the processing

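No member was called under any alternative run, and 0 genes were called except with the replicate number as a block. That fit called 92 of 10757 genes (0.855%), 0 of them members, and 1 gene of the other lists, Th (log2 0.74, edgeR adjusted p = 0.03). The targeted gene Lbx1, in none of the lists, was also called, higher under the Lbx1Δ/Δ label (log2 1.88, SE 0.13, edgeR adjusted p = 1.19e-06). On genotype alone Lbx1 had a log2 difference of 2.02 (SE 0.68, edgeR adjusted p = 0.9998). With the replicate block P2rx3 turned to −0.071 (SE 0.13), Pou4f2 was at 0.47 (edgeR adjusted p = 0.255), Ret at −0.47 (adjusted p = 0.354) and Ntrk3 at 0.31 (adjusted p = 0.408). In the same block fit Avil was at 0.024 (SE 0.28, against 0.86 on genotype alone), Ntrk2 at 0.062 (SE 0.10) and Runx3 at 0.17 (SE 0.18). The deviations of same-numbered libraries from their group means correlated at 0.62 over 10757 genes, a single value for both pairs. RLE scaling, library totals, DESeq2 and the other filters kept every member's direction. Leaving out 1 library gave log2 differences of −1.42 to 1.09 for Avil, −0.43 to 1.20 for Pou4f2, −0.72 to 0.53 for P2rx3, −0.11 to 0.69 for Ntrk3, −1.02 to −0.016 for Ret, −0.10 to 0.24 for Ntrk2 and −0.027 to 0.38 for Runx3. The lowest came without library 2 labelled Lbx1Δ/Δ, or without WT library 1 for Ntrk2 and Runx3. Each of these fits called 0 genes, and the causes were not tested. Genes with several accessions, Ntrk2, Ntrk3, Ret and Runx1 among the 8, may be counted in part only.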

Other observations

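Neurog1, a proneural factor of nociceptor precursors and of the neural tube, did not share the order of the members over libraries. It was at 55.6 and 40.0 CPM in libraries 1 and 2 labelled Lbx1Δ/Δ and at 40.6 and 41.7 CPM in the WT libraries, where each tested member was higher in library 2 under both labels. It was not called between labels by edgeR (log2 0.21, SE 0.24, adjusted p = 0.9998).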
